A study of Homo sapiens with 6 samples.

Results

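The regions described are all Brpf2 ChIP-seq peaks on human chromosomes 8 and 9, taken by chromosome name from the authors' peak list, which uses build hg18. They number 930 of 11874 listed peaks, 405 on chromosome 8 and 525 on chromosome 9. The peaks come from 1 library of RKO, a human colon carcinoma line kept in normal growth medium with no treatment, in which chromatin from sonicated nuclei was pulled down with a commercial antibody to Brpf2. The 5 other samples of the series (ING2, ING5, H3K4me3, H3 and rabbit IgG, also from untreated RKO) were not analysed here. Both chromosomes were picked because their peak widths had been seen to change along their length, so the widths below are a description and carry no test.

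Brpf2, also named BRD1, is a scaffold protein with PHD fingers, a bromodomain and a PWWP domain, which are modules that bind histone tails. It holds a MYST-family acetyltransferase such as HBO1 together with an ING protein and MEAF6, and the complex acetylates histone H3. Such complexes are known mainly from gene starts and active promoters. The width of a peak is the stretch over which the caller found enrichment, and the score is the caller's value for the strength of the evidence. The read depth behind the peaks is unknown.

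Wide peaks tend to be high-scoring in this list, so each width was set against peaks of like score. The 11513 autosomal peaks were divided into 20 bins of score, and the relative width of a peak is log2 of its width over the median width of its bin. A relative width of 0 is therefore a width typical for the score, and a relative width of 1 is a doubling of it. With 1 library there are no replicates. Every interval printed below is an exact 95% interval that treats peaks as independent draws and covers counting error only.

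Brpf2 peaks toward the far end of both chromosomes were wider than peaks of the same score elsewhere. On chromosome 8 the median relative width was 0.0088 (interval -0.059 to 0.070) over the 266 peaks before the best single change point and 0.57 (0.46 to 0.68) over the 139 peaks after it. Chromosome 9 had 0.011 (-0.028 to 0.049) over 331 peaks before and 0.48 (0.40 to 0.56) over 194 peaks after. The step was thus 0.56 on chromosome 8, or 1.48-fold in width, and 0.47 on chromosome 9, or 1.38-fold. Before the change point both chromosomes lay close to the other autosomes, whose 10583 peaks had a median of -0.012 (-0.023 to -0.0028).

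In base pairs, the median Brpf2 peak of chromosome 8 measured 2605 bp before the change point (2427 to 2786 bp) and 3716 bp after it (3574 to 4116 bp). That of chromosome 9 measured 2369 bp before (2241 to 2557 bp) and 3780.5 bp after (3476 to 4124 bp). Peaks of 5 kb or more, a width that only 4.03% of peaks on the other autosomes reached, made up 4.89% before and 25.9% after on chromosome 8. The same shares of chromosome 9 were 4.83% before and 20.1% after.

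Peaks at least 25% wider than the median of their bin, called wide here, numbered 67 of 266 before and 100 of 139 after the change point on chromosome 8, or 25.2% (20.1 to 30.9%) and 71.9% (63.7 to 79.2%). Over all autosomal peaks 20.7% were wide. On chromosome 9 there were 69 wide peaks of 331 before, or 20.8% (16.6 to 25.6%), and 126 of 194 after, or 64.9% (57.8 to 71.6%). Peaks at least 50% wider than that median numbered 32 before and 65 after on chromosome 8 and 32 before and 77 after on chromosome 9, where 7.98% of all autosomal peaks were that wide. The change points were chosen on these widths, so the counts restate the step in another form.

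**Figure D1:**
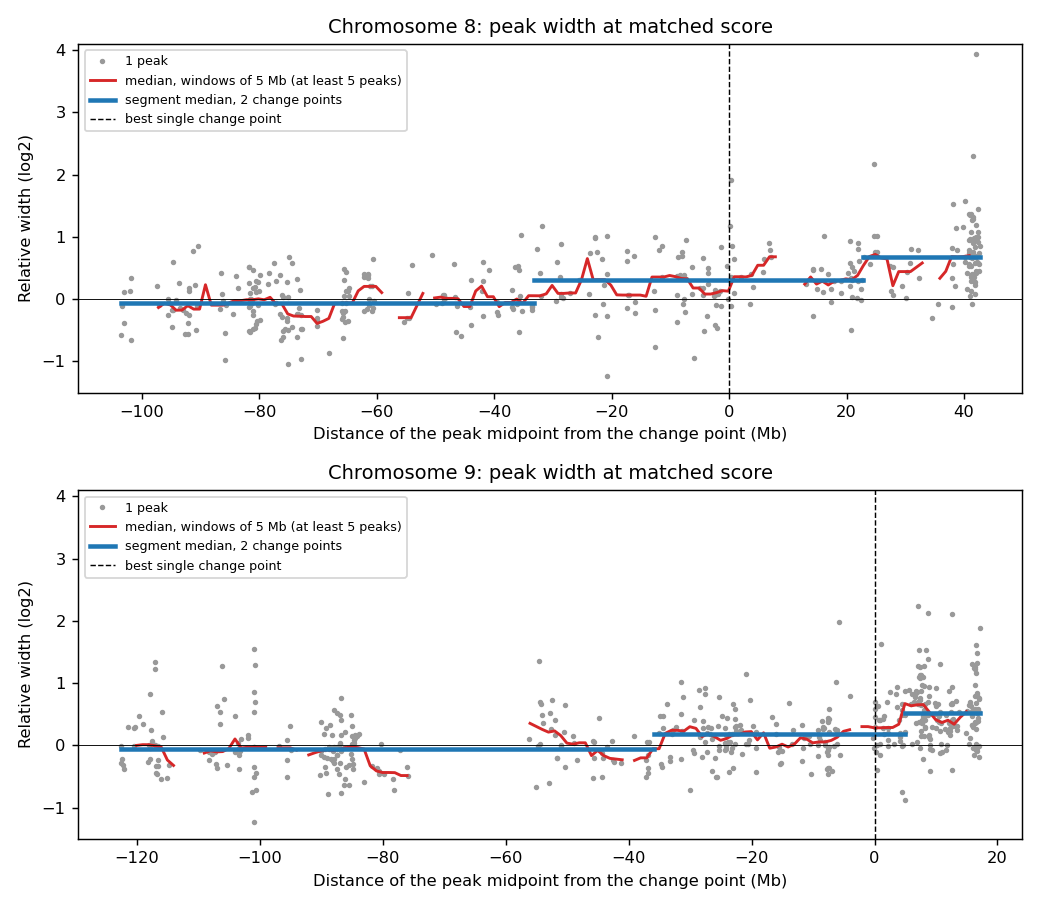
Relative width (log2 of width over the median of the score bin) of each of 930 Brpf2 peaks against its distance in Mb from the best single change point, 1 panel per chromosome; the red line is the median in windows of 5 Mb and the blue bars are medians of 3 segments. Chromosome 8 climbs in stages, with segment medians of -0.068, 0.30 and 0.68, and chromosome 9 has segment medians of -0.055, 0.19 and 0.52.

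The whole spread of widths was displaced, not only its upper tail. After the change point 92.8% of the chromosome 8 peaks (87.2 to 96.5%) and 87.6% of the chromosome 9 peaks (82.2 to 91.9%) were wider than the median of their bin. Of all autosomal peaks 49.9% were. Peaks no wider than 0.8 times that median numbered 48 before and 1 after on chromosome 8 and 60 before and 5 after on chromosome 9, where 18.6% of all autosomal peaks were that narrow. The lower and upper quartiles of relative width were -0.23 and 0.33 before and 0.29 and 0.85 after on chromosome 8, with a distance of 0.56 between them on both sides. For chromosome 9 the quartiles were -0.23 and 0.28 before and 0.21 and 0.76 after, a distance of 0.50 before and 0.55 after.

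Along chromosome 8, relative width stayed low over the first 70 Mb and then rose in stages. In blocks of 5 Mb from position 1 to 70000000 the median lay between -0.30 and 0.04, except from 40000001 to 45000000, where 15 peaks had a median of 0.21. From 70000001 on, every block of 5 Mb had a median above 0. The blocks between 80 and 100 Mb alternated between 0.31, 0.07, 0.36 and 0.18. The block from 125000001 to 130000000 reached 0.68 with 15 peaks, and the 2 blocks from 140000001 to the last peak at 146251993 had 0.68 and 0.76, with 31 of 38 and 29 of 33 peaks wide. Between them, the block from 135000001 to 140000000 held 4 peaks with a median of 0.14.

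The best single change point on chromosome 8 lay at 103.6 Mb, in the stretch without a peak between 103495553 and 103733984. The 3 peaks just before it started at 102284740, 103317667 and 103490968, with widths of 4252, 4590 and 4586 bp and relative widths of -0.11, 0.53 and 0.0036. The first and the last of these had a score of 3100, the value at which scores pile up in this list. The 3 peaks just after it started at 103733984, 103885922 and 103891026, with widths of 6369, 4710 and 1512 bp and relative widths of 1.17, 1.91 and -0.10. Of the 10 nearest peaks on each side, 2 were wide before and 7 after, and of the 30 nearest 9 and 17, against 20.7% of all autosomal peaks. The change point was chosen on these widths, so such counts restate it.

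A fit with 2 change points divided chromosome 8 at 70.5 and 126.3 Mb. The first segment held 186 Brpf2 peaks with a median relative width of -0.068 (-0.12 to 0.0057), the second 128 peaks with 0.30 (0.16 to 0.38) and the third 91 peaks with 0.68 (0.57 to 0.76). The share of wide peaks was 17.7%, 46.9% and 81.3% in turn. The sum of absolute deviations from the segment medians dropped by 19.7%, against 15.9% with a single change point. The single change point at 103.6 Mb thus lies inside the middle segment and is not where either of these rises was placed.

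Along chromosome 9, relative width was near 0 over most of the first 115 Mb. Narrow peaks stood before the longest stretch with no peak, which ran for 19.6 Mb from 46684349 to 66292829. The 8 peaks between 40000001 and 45000000 had a median relative width of -0.43 and a median score of 110, and none was wide. Just past that stretch, the 12 peaks from 65000001 to 70000000 had a median of 0.31, also with a low median score of 128. From 70000001 to 90000000 the blocks lay between -0.25 and 0.04, and from 90000001 to 115000000 between 0.02 and 0.30.

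The rise at the far end of chromosome 9 began among few peaks. The 16 peaks from 115000001 to 120000000 had a median of 0.23 and the 24 from 120000001 to 125000000 had 0.28, with 6 and 10 wide. The median then stood at 0.67 in the 43 peaks from 125000001 to 130000000, at 0.41 in the next 66 and at 0.54 in the last 63, which end at 139636160. The wide peaks in these 3 blocks numbered 32, 39 and 45. A fit with 2 change points placed them at 86.7 and 127.5 Mb, with medians of -0.055 (-0.13 to -0.0049), 0.19 (0.089 to 0.24) and 0.52 (0.42 to 0.64) in segments of 194, 177 and 154 peaks.

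The best single change point on chromosome 9 lay at 122.6 Mb, between a peak that ends at 122517673 and one that starts at 122593435. The 3 peaks before it started at 118488182, 122380590 and 122515062, with relative widths of 0.79, 0.13 and -0.045. The 3 after it started at 122593435, 122643389 and 122670918, with relative widths of 0.46, 0.30 and 0.69. Among the 10 nearest peaks on each side, 3 were wide before and 5 after, and among the 30 nearest 8 and 15, against 20.7% of all autosomal peaks. These counts too restate a change point chosen on the same widths. Only 3 peaks lay in the 5 Mb before the change point, against 41 in the 5 Mb after it. Where widths changed within that thinly filled stretch cannot be told from these peaks.

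Neither step was sharp. On chromosome 8, candidate positions as far apart as 101.7 and 109.4 Mb kept at least 95% of the best drop in deviation, and those that kept at least 90% lay between 70.1 and 126.3 Mb, a span of 56.3 Mb. A division at 70.5 Mb kept 93.7% and one at 125.5 Mb kept 93.1%. For chromosome 9 the outer limits were 115.0 and 125.9 Mb at 95% and 114.9 and 127.8 Mb at 90%, a span of 13.0 Mb, and a division at 116.1 Mb kept 99.2%. Some positions between these limits fell below the share named. The positions on chromosome 8 spanned less than those on chromosome 9 at 95% (7.71 against 10.9 Mb) and more at 90%.

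**Figure D2:**
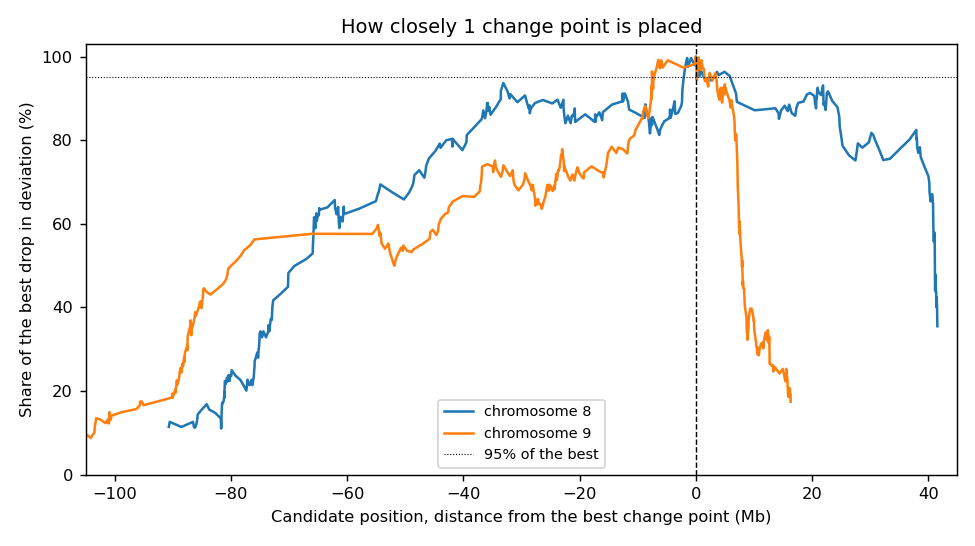
Share of the best drop in the sum of absolute deviations (%) that a single change point keeps when it is placed elsewhere, against its distance in Mb from the best position, for chromosomes 8 and 9. The curve of chromosome 8 stays high from 70.1 to 126.3 Mb with parts under 90%, whereas that of chromosome 9 falls off within a few Mb after the best position.

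Close to the change points the contrast in width was smaller or less certain than over the whole sides. Within 5 Mb of the chromosome 8 change point, 21 peaks before had a median of 0.083 (-0.089 to 0.24) and 11 after had 0.36 (-0.074 to 1.17), a difference of 0.28. Within 2 Mb the difference was 0.57, with only 7 peaks on each side, and within 10 Mb it was 0.41, with 38 and 16 peaks. Within 20 Mb the difference was 0.25, from 53 peaks at 0.14 (0.063 to 0.37) to 30 at 0.38 (0.20 to 0.49). On chromosome 9 the difference over 10 Mb was 0.38, from 38 peaks at 0.10 (-0.031 to 0.26) to 107 at 0.48 (0.38 to 0.65). In runs of 15 consecutive peaks, the last run wholly before and the first wholly after had medians of 0.083 and 0.44 on chromosome 8 and of 0.13 and 0.40 on chromosome 9.

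No run of 15 peaks after either change point returned to the level before it. The lowest such run had a median of 0.29 on chromosome 8, centred at 119.6 Mb, and of 0.20 on chromosome 9, centred at 125.7 Mb. Before the change point the highest run reached 0.40 on each chromosome, centred at 81.9 Mb on chromosome 8 and at 93.2 Mb on chromosome 9. The earlier parts of both chromosomes thus held local stretches of wide peaks as well.

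A change point picked to give a large contrast overstates it in the same peaks. As a description, it was also placed with every other peak and measured in the peaks left out. On chromosome 8 the odd-numbered peaks placed it at 125.5 Mb, and the even-numbered ones then stepped from 0.066 (-0.054 to 0.13) to 0.67 (0.45 to 0.75), by 0.60. The even-numbered peaks placed it at 103.7 Mb, and the odd-numbered ones stepped from 0.025 (-0.059 to 0.13) to 0.58 (0.43 to 0.68), by 0.56. On chromosome 9 the positions were 116.1 and 123.2 Mb, and the step in the peaks left out was 0.44 in both cases. These values do not correct for the choice: the chromosomes were picked on the widths of all their peaks, and peaks left out lie between peaks used for the placing.

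Weak and strong Brpf2 peaks were both wider after the change point. In the lowest quartile of score (under 242) the median width was 1436 bp before and 2482 bp after on chromosome 8 (intervals 1107 to 1757 and 1692 to 2868 bp). In the highest quartile (1407 or more) it was 3629 bp before and 5214.5 bp after (3348 to 4030 and 4356 to 6205 bp). The corresponding medians of chromosome 9 were 1325 and 2337 bp in the lowest quartile (1163 to 1506 and 1972 to 2819 bp) and 3597.5 and 4703 bp in the highest (3361 to 3870 and 4387 to 4980 bp).

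The median peak of every class was wider after the change point, by 807 to 1585.5 bp. Median width was higher by 1046, 883, 1334.5 and 1585.5 bp from the lowest to the highest quartile on chromosome 8. The differences on chromosome 9 were 1012, 807, 1022 and 1105.5 bp. In log2 units, the step in relative width was 0.84 (1.79-fold) in the lowest and 0.56 (1.47-fold) in the highest quartile of chromosome 8. In those of chromosome 9 it was 0.69 (1.62-fold) and 0.31 (1.24-fold). Differences between the classes were not tested. All autosomal peaks had medians of 1442, 2079, 2589 and 3592 bp in the 4 classes. Before the change point, intervals included these values except in the second class of chromosome 8 and the third of chromosome 9. Those were already wider, at 2351 bp (2130 to 2468 bp) and 2752 bp (2612 to 2843 bp).

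**Figure D3:**
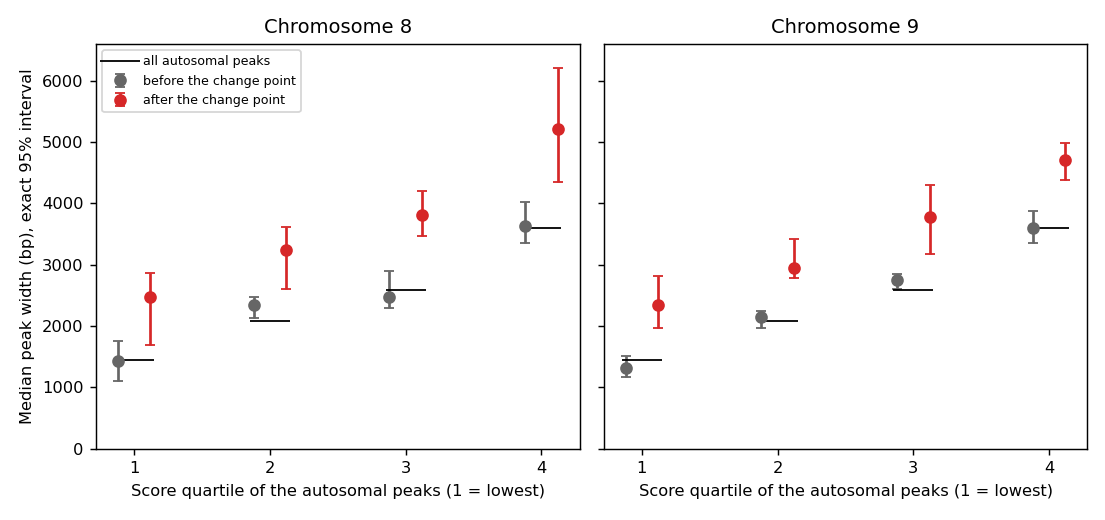
Median width in bp of Brpf2 peaks before (grey) and after (red) the change point in each quartile of the autosomal scores, with exact 95% intervals; black bars are medians of all autosomal peaks. On both chromosomes the red points lie above the grey ones in all 4 classes, for instance at 2337 against 1325 bp in the lowest class of chromosome 9.

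Median scores were higher over the whole far side of both chromosomes, with overlapping intervals on chromosome 8, but not clearly so near the change points. The median score on chromosome 8 was 747 before (638 to 948) and 1003 after (788 to 1245), and the share of peaks at or above 3100 was 12.8% and 11.5%. Within 20 Mb of the change point the median score was lower after it, 750 (367 to 1329) against 1166 (627 to 1586), with overlapping intervals. On chromosome 9 the median score was 609 before (468 to 722) and 1018 after (748 to 1330), and 8.46% and 16.5% of peaks were at or above 3100. Of all autosomal peaks, 8.46% were at or above 3100, fewer than on either side of chromosome 8. Within 10 Mb of the chromosome 9 change point the medians were 704 (308 to 1104) and 709 (522 to 936). Within 20 Mb of that change point they were 832 (391 to 1078) before and 1018 (748 to 1330) after, with overlapping intervals. At that distance the score was thus higher after on chromosome 9 and lower after on chromosome 8. Among the blocks of 5 Mb past it, the highest median score, 1852, was that of the last, from 135000001.

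Peak density within 20 Mb of the change point was lower after it on chromosome 8 and higher after it on chromosome 9. Chromosome 8 carried 2.65 peaks per Mb before (1.99 to 3.47) and 1.5 after (1.01 to 2.14), a ratio of 0.57 (0.35 to 0.90). The ratio was 0.42 (0.22 to 0.77) within 10 Mb and 0.52 (0.23 to 1.14) within 5 Mb. Within 2 Mb both sides carried 3.5 peaks per Mb. Over its whole sides chromosome 8 carried 2.57 (2.27 to 2.90) and 3.26 (2.74 to 3.85). Chromosome 9 carried 3.05 peaks per Mb in the 20 Mb before (2.33 to 3.92) and 11.4 in the 17.1 Mb after (9.82 to 13.1), a ratio of 3.72 (2.78 to 5.05). The densest windows of 1 Mb lay after the change points, with 27 peaks from 145000001 to 146000000 on chromosome 8, of which 23 were wide. On chromosome 9 there were 25 peaks from 130000001 to 131000000 and again from 139000001 to 140000000, with 18 wide in each. The longest stretch with no peak on chromosome 8, 6.02 Mb from 110727652 to 116747423, also lay after the change point.

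Within 20 Mb of the single change points, density thus differed in opposite directions on the 2 chromosomes while width was higher after both. This depended on the position chosen. In the fit with 2 change points, the segments of chromosome 8 carried 2.65 (2.28 to 3.05), 2.29 (1.91 to 2.72) and 4.57 (3.68 to 5.61) peaks per Mb in turn. The last and widest segment, from 126.3 Mb, was thus the densest. Whether width depends on density was not tested. When peaks were matched on score and on the number of peaks within 500 kb, a setting chosen after seeing the data, the step was 0.49 on chromosome 8, with the change point at 70.5 Mb, and 0.40 on chromosome 9, with the change point at 116.1 Mb. Peaks with a neighbour within 10 kb made up 15% before and 32.4% after on chromosome 8, and 17.5% and 31.4% on chromosome 9. Over all autosomal peaks that share was 23.1%, between the shares of the 2 sides. Within 2 kb the shares were 9.02% and 8.63% on chromosome 8 and 7.25% and 3.09% on chromosome 9, against 8.33% of all autosomal peaks. Among peaks with no neighbour within 10 kb the step was 0.49 and 0.47.

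**Figure D4:**
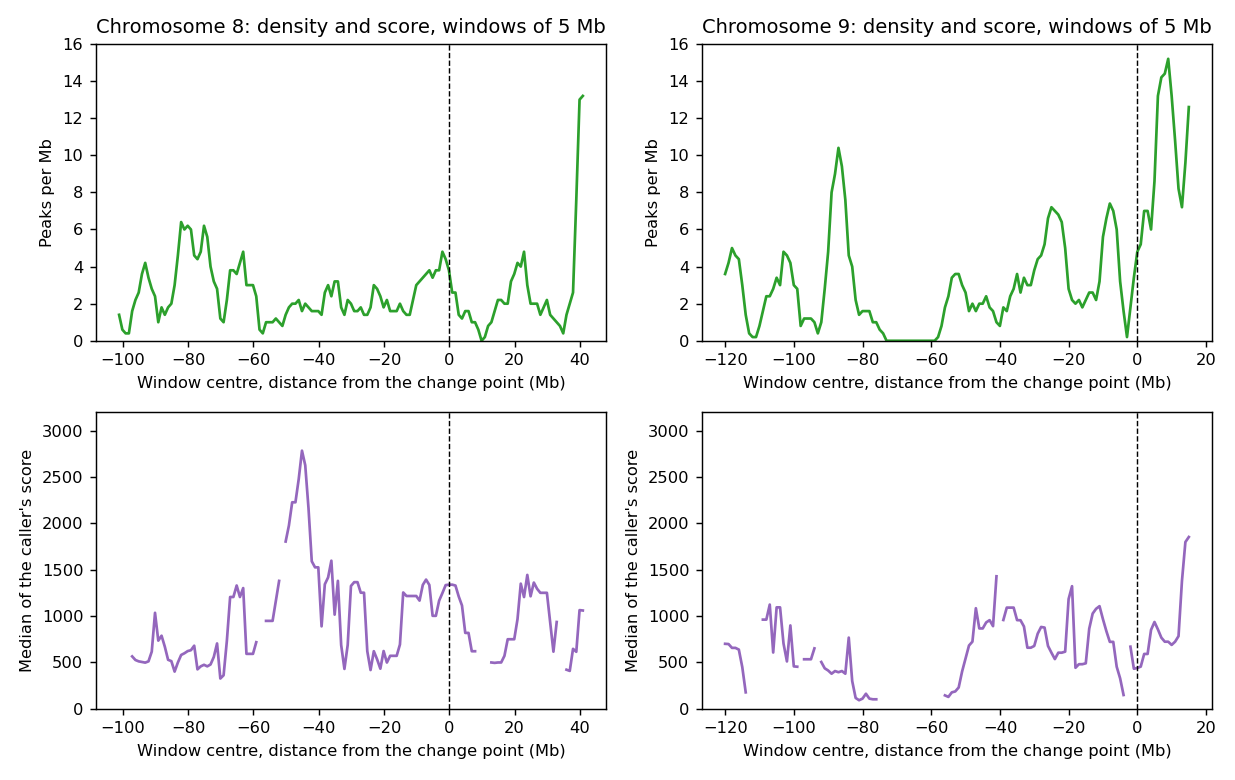
Peaks per Mb (top) and median of the caller's score (bottom) in windows of 5 Mb against the distance of the window centre in Mb from the change point (dashed); scores are shown for windows with at least 5 peaks. Density is 1.5 peaks per Mb over the 20 Mb after the change point on chromosome 8, and 11.4 over the 17.1 Mb after it on chromosome 9.

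The same fit was made on each of the other 20 autosomes, where a best change point also exists by construction. Their steps ranged from 0.066 to 0.28 in size, with a median of 0.16, and 10 went up and 10 went down along the chromosome. The drop in deviation was between 0.44% and 4.77% on those chromosomes, against 15.9% on chromosome 8 and 13.1% on chromosome 9. The nearest was chromosome 7, with a step of 0.25 at 97.7 Mb from -0.099 (-0.14 to -0.065) to 0.15 (0.077 to 0.24). Chromosome 20 had a median relative width of 0.17 (0.11 to 0.24) over all its 306 peaks, close to the 0.18 of each of chromosomes 8 and 9, but a step of 0.18. These values rank the chromosomes within 1 library and were not tested.

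**Figure D5:**
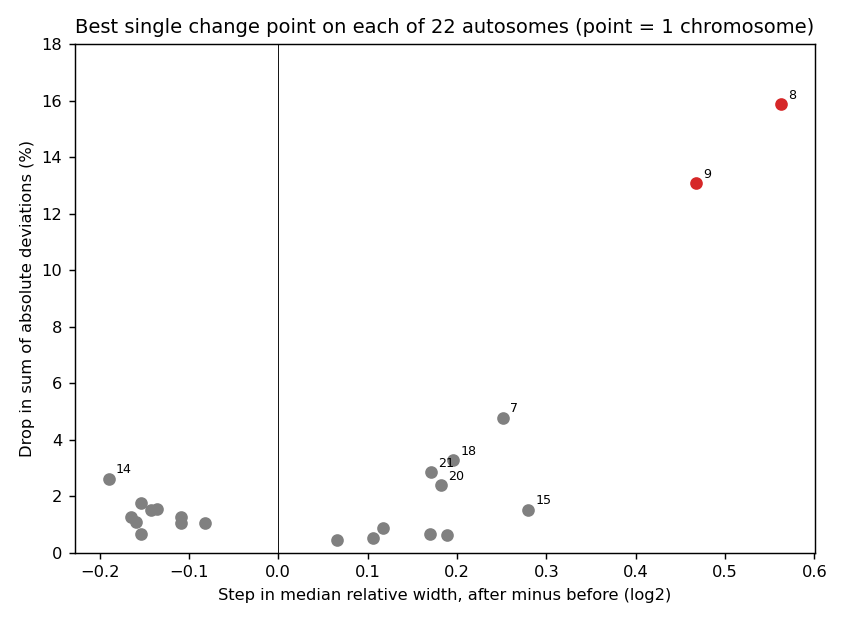
Step in median relative width (log2, after minus before) at the best single change point of each of 22 autosomes against the drop in the sum of absolute deviations it gives (%); each point is 1 chromosome, and those beyond the main cluster are numbered. Chromosomes 8 (0.56 and 15.9%) and 9 (0.47 and 13.1%) lie apart from the others, which reach 0.28 and 4.77%.

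Of the 8 peaks widest for their score, 4 on each chromosome, 7 lay after the change points. Of all peaks, 139 of 405 on chromosome 8 and 194 of 525 on chromosome 9 lay after them. The change points were chosen on these same widths, so where the widest and narrowest peaks fall restates the step. On chromosome 8 the first was a peak of 22.7 kb from 145703293 to 145725964 with a score of 136, at a relative width of 3.94. It was followed by one of 14.5 kb from 145087120 to 145101619 with a score of 1558 (2.31) and one of 9744 bp from 128292931 to 128302674 with a score of 523 (2.18). The fourth was the second peak after the change point, from 103885922 to 103890631, with a score of 74.1 and 394 bp from its neighbour. All 4 followed the chromosome 8 change point.

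On chromosome 9 the peak widest for its score ran from 129676671 to 129681728 (5058 bp, score 54.65, relative width 2.24). The next were from 131288593 to 131295021 (6429 bp, score 114, 2.12) and from 135215684 to 135220283 (4600 bp, score 54.56, 2.11). The fourth, from 116704962 to 116709921 (4960 bp, score 86.8, 1.98), lay 5.85 Mb before the change point, between the positions that keep 95% of the best drop. All 4 of these had scores under 242, in the lowest quartile.

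The peaks narrowest for their score were on chromosome 8 from 82760413 to 82761614 (1202 bp, score 1367, relative width -1.24) and from 28535471 to 28535992 (522 bp, score 56.7, -1.03). On chromosome 9 they were from 21551642 to 21552271 (630 bp, score 110, -1.23) and from 127459579 to 127460461 (883 bp, score 170, -0.88). The last of these was the only one of the 4 after a change point, 4.90 Mb past that of chromosome 9.

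High scores occurred on both sides of the change points, and on chromosome 9 the relative widths at such scores varied within a side as well. On chromosome 8, the highest-scoring peak, from 145483063 to 145489898 (3233.06), had a relative width of 0.58, while the next 2, from 48810812 to 48814535 (3185.77) and from 67502546 to 67506872 (3184.78), had -0.30 and -0.080. On chromosome 9, the highest, from 33252673 to 33256040 (3214.09), had -0.44. The next, from 139210758 to 139222187 (3186.17), had 1.32 after the change point, and the third, from 5439239 to 5449902 (3186.02), had 1.22 although it lay before it. That last peak had a neighbour 196 bp away.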

How the data were processed

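Brpf2 ChIP-seq peaks of 1 RKO library were used. Per the submitters' processing notes the tools were BWA, SAMtools and bedtools and the build hg18, with no roles given. Peak names in the deposited file carry the caller MACS, whose version, settings and control were not found in the labels or the file. Each score is the authors' deposited value, on an unstated scale, and was used only within this list. Positions are the authors' deposited start and end, given here counted from 1, including 1 chromosome 9 peak that starts before position 1.

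Width is end minus start. The 20 score bins are quantiles over 11513 autosomal peaks, closed on the left, so that all peaks at or above 3100 share a bin (974 peaks; the smallest bin holds 178). A change point minimised the sum of absolute deviations from the medians of both sides, with at least 30 peaks per side (20 per segment with 2 change points). Windows of 5 Mb moved by 1 Mb, with at least 5 peaks. Peaks were placed by midpoints. Intervals of medians come from order statistics (binomial), shares have Clopper-Pearson and densities exact Poisson intervals. The members, the fold for wide peaks and all lists were chosen with earlier results of these data known. The regions named were set by rule for each chromosome: the 4 largest and 2 smallest relative widths, the 3 highest scores, 3 peaks on each side of the change point, the longest stretch with no peak and the densest 1 Mb. No hg18 genes or sequence were used, so peaks were not assigned to genes. The code was tested on simulated data (Python 3.11.15, numpy 2.4.6, scipy 1.17.1).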

Additional observations from a re-analysis of the deposited data

How the results depend on the processing

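Of 80 alternative values, 64 stayed within the interval of the main value (for positions, within the limits that keep 95% of the best drop), 14 left it, and 2 had no interval to be set against. For a difference of medians, such as the step, that interval was built from the opposite limits of the 2 sides. It is wider than a 95% interval of the difference, so staying within it is a loose criterion. No step, difference or density ratio changed direction. The positions, 12 alternatives on each chromosome, and the shares of wide peaks have no direction, so they could not have reversed. The steps at the main position, 10 alternatives on each chromosome, reuse settings of the re-fitted steps and are not separate checks. The size of the step ranged from 0.38 to 0.58 on chromosome 8 and from 0.33 to 0.48 on chromosome 9 over 12 alternatives each. With 2 change points the larger rise was 0.38 at 126.3 Mb on chromosome 8 and 0.34 at 127.5 Mb on chromosome 9. With the lower-scoring peaks under the autosomal median score removed, the step on chromosome 9 was 0.33 at 115.0 Mb. On chromosome 8 the change point moved from 103.6 to 70.5 Mb among peaks below 3100, with matching on local density, and without the last 5 Mb of each chromosome. The last 2 settings were chosen after seeing the data. On chromosome 9 the difference over 5 Mb on each side, 0.18 with only 3 peaks before and therefore no interval, was 0.36 over 2 Mb and 0.38 over 10 Mb. With a fold of 1.5 the wide shares before and after were 12% and 46.8% on chromosome 8, and 9.67% and 39.7% on chromosome 9, which follows from the stricter fold (7.98% of all autosomal peaks). The other causes were not tested. No paired analysis was possible because each target has 1 library. The depth is unknown, so how width depends on it could not be measured, and the copy number of these chromosomes in RKO was not analysed here.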
